A study of Homo sapiens with 42 samples.

Results

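The RNA of 9 genes of bone morphogenetic protein (BMP) signalling was followed in HAP1 cells, a near-haploid human line, that lacked DNA glycosylases of the NEIL family. The 9 genes, of 20515 named genes in the deposited table, are the ligands BMP2, BMP4 and BMP7, the target genes ID1, ID2, ID3 and ID4, and the inhibitory SMAD genes SMAD6 and SMAD7. The set was chosen by measured values: BMP2 was close to absent in neil2 cells and BMP7 was high in neil3 cells, which raises the question of whether the ID genes follow. Those differences chose the genes, so they are given as values without a test. Of the 9 genes, 8 (all but ID4) reached the mean of 10 normalized read counts that 14331 genes needed to be tested.

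The 42 libraries of total RNA came from cells that lacked NEIL1, NEIL2, NEIL3 or all of NEIL1, NEIL2 and NEIL3 (labelled neil1, neil2, neil3 and neil123) and from wild-type cells (wt). NEIL glycosylases remove oxidised bases from DNA. Cells of each genotype were given 200 µM BSO (buthionine sulfoximine, an inhibitor of glutathione synthesis) or media alone for 48 h, begun after 4 h. Per treatment there were 3 neil1, 3 neil2, 4 neil3, 4 neil123 and 7 wt libraries. Replicate names ending in A or B (neil3, neil123 and 4 wt per treatment) form the lettered set, and the remaining names (neil1, neil2 and 3 wt per treatment) the unlettered set. Each knockout was compared with wt of its own set. The number in a replicate name was read as the line, which gave 2 lines per knockout genotype and 8 knockout lines in all. The wt names gave lines 1.1 and 1.3, each in both sets, and p1, in the unlettered set only (11 lines with the knockouts). Each n below counts libraries and not lines.

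BMP ligands are secreted proteins that bring type I and type II receptor kinases together on the cell surface. The type I receptor phosphorylates SMAD1, SMAD5 or SMAD9, which enter the nucleus with SMAD4 and switch on target genes, with the ID genes among the best known. ID proteins bind basic helix-loop-helix factors such as the E proteins and keep them from DNA, while SMAD6 and SMAD7 are induced by the pathway and inhibit it.

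The unlettered libraries held 30192301 to 30945972 reads and the lettered ones 27150434 to 29017005, so the sets did not overlap in depth. The RNA of the targeted genes gave a mixed check of the labels. NEIL2 was at 299.8 to 328 normalized counts in neil2 media libraries against 487 to 613 in wt, and at 215 to 242 in neil123 against 363 to 425 in wt. NEIL3 was at 381 to 472 in neil123 media libraries against 589.7 to 671 in wt, but its neil3 range, 409.6 to 614, overlapped that of wt. NEIL1 was no lower in neil1 (284 to 513, against 309.6 to 403 in wt) or in neil123 (842 to 1072, against 774 to 975 in wt). An edited gene can keep its RNA, and the sources used here do not give the edited sites. HAP1 has no defining marker set. Of the blood markers, PTPRC, GATA1 and ITGAM were under 3 in every library. The labels call many of the replicates biological without saying how the cultures were kept apart, so the p-values measure the spread between these libraries. In bulk RNA, fewer cells that make a transcript and less transcript per cell cannot be told apart.

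Per kilobase of exon (GENCODE v29, GRCh38), the targets stood far above the ligands in wt cells in media. ID3 averaged 2206 and ID1 1994 normalized counts per kilobase, ID2 303, SMAD6 114, BMP4 64.4, BMP7 55.4, SMAD7 50.4, BMP2 17.6 and ID4 0.243. Over the 42 libraries BMP2 and BMP7 had the wide ranges: BMP2 ran between 0 and 129 normalized counts and BMP7 between 111 and 2049, whereas ID1 ran between 1215 and 3619.

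BMP2 (chr20:6767664-6780280, plus strand, GRCh38) was low in 7 of the 8 knockout lines, with 1 neil3 line as the exception. The neil2 values that chose it were 0, 0 and 0.967 normalized counts in media, against 60.2, 73.8 and 129 in wt. With BSO they were 0, 0.975 and 1.97 in neil2, against 64.4, 77.7 and 122.8 in wt. The neil2 media libraries held 1 BMP2 read in all and the wt media libraries 274. A count of 0 at this depth allows up to 3 reads per library.

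The triple knockout was low as well. The neil123 media libraries had 1.97, 2.07, 2.99 and 3.05 normalized counts of BMP2, against 20.2, 28.5, 57.1 and 73.5 in wt. No library of either group reached the other's range. The mean was 2.52 ± 0.578 in neil123 and 44.8 ± 24.8 in wt (SD, n = 4 each), a log2 difference of −3.54 ± 0.95 (SE) with an adjusted p of 0.0196 by limma with Benjamini-Hochberg adjustment over all 14331 genes. With BSO it was 2.27 ± 0.973 in neil123 and 56.5 ± 27.4 in wt (log2 difference −4.06 ± 0.95, limma adjusted p = 0.00593). The media call was lost without wt 1.1B (adjusted p = 0.0771), wt 1.3B (0.0632) or neil123 2A (0.0506). It was also lost without either neil123 line in media (0.12 and 0.142) and without line 1 with BSO (0.0724). With 1 mean per line it was lost in both treatments (adjusted p = 0.342 in media and 0.184 with BSO).

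Within neil1 and neil3 the lines parted. The neil1 line 12 had 3.06 normalized counts of BMP2 in media, whereas line 13 had 32.3 and 53.0, against 60.2 to 129 in wt. The neil3 line 2 had 1.04 and 1.94, whereas line 1 had 37.2 and 117, against 20.2 to 73.5 in wt. So neil3 line 2 lay at the level of neil123, and neil3 line 1 overlapped wt. By limma neither genotype passed (neil1 −2.12 on the log2 scale, adjusted p = 0.434, and neil3 −1.66 with an adjusted p of 0.997). With line 1 left out the neil3 difference was −4.05, which describes the 2 libraries of line 2 and not the genotype. Of the 6 lines other than neil2, which chose the gene, 5 lay below every wt library of their set in BMP2 in each treatment. Of all tested genes, 0.698% were below wt in 5 or more of these lines in media and 0.719% with BSO.

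BMP7 (chr20:57168748-57266629, minus strand) was the reverse: it stood high in most lines, with 1 neil2 line as the exception. In the mouse this ligand is needed for kidney and eye development. The neil3 values that chose it were 1435, 1693, 1774 and 1883 normalized counts in media, against 222, 262, 395 and 428 in wt. Every neil3 library lay above every wt library, at 5.19 times the wt mean in media and 5.54 times with BSO. The neil123 media libraries had 1589.6, 1624, 1714 and 1888 normalized counts of BMP7. Their mean of 1704 ± 133, against 326.6 ± 100 in wt (SD, n = 4 each), gave a ratio of 5.22 and a log2 difference of 2.43 ± 0.53 (SE, limma adjusted p = 0.00322). With BSO the neil123 mean was 1791 ± 80.7 against 330.8 ± 114 in wt (log2 difference 2.50 ± 0.53, limma adjusted p = 0.0025). Both calls held without any 1 of the 8 libraries and were lost with 1 mean per line (adjusted p = 0.319 and 0.22). The media call was also lost without neil123 line 2 (adjusted p = 0.056). The neil3 and neil123 comparisons share their wt libraries.

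The unlettered knockouts were split in BMP7 by line. In media neil1 line 13 had 1315 and 1521 normalized counts and line 12 had 372, against 229, 232 and 331 in wt. The neil2 line 11 had 1059 and 1126, whereas line 12 had 184, below the wt libraries. All but neil2 line 12 were thus above wt in media, though neil1 line 12 only a little. Neither genotype passed by limma in media (neil1 1.80 ± 0.61, adjusted p = 0.217; neil2 1.21 ± 0.61, adjusted p = 0.204). Without library neil2 12 of the treatment compared, the neil2 difference in media was 2.06 with an adjusted p of 0.0233 (0.00971 with BSO). With line 12 left out of both treatments the adjusted p was 0.00153 in media and 0.00148 with BSO. For neil1 with BSO the difference was 1.69 (adjusted p = 0.325), and 2.39 with line 12 left out of both treatments (adjusted p = 0.0451, or 0.0826 with only its BSO library left out). DESeq2 called BMP7 higher in neil1 (adjusted p = 0.046) and neil2 (0.0445) in media. Of the 6 lines other than neil3, which chose the gene, 5 lay above every wt library of their set in BMP7 in media, as 3.06% of tested genes did in 5 or more. With BSO 4 did, and 10.3% of tested genes did in 4 or more. BMP7-AS1 lies on the opposite strand of BMP7, and since the strand setting of the counting is not given in the sources used here, their reads cannot be told apart.

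BMP4 (chr14:53949736-53958761, minus strand), a ligand needed for mesoderm formation in the mouse embryo, lay below every wt library of its set in 3 lines, neil1 line 12 and both neil2 lines, in each treatment. All 3 were also low in BMP2. Such a position was common in these lines taken singly. In neil1 line 12, neil2 line 11 and neil2 line 12, 27.4%, 20.8% and 26.8% of tested genes lay below wt in media. With BSO these shares were 27.9%, 25.4% and 31.9%. In neil2 media libraries BMP4 had 58.1 and 68.4 normalized counts in line 11 and 166.3 in line 12, against 168.7, 175.1 and 217.7 in wt. With BSO neil2 had 51.3, 52.3 and 154, against 165.5, 185.8 and 198.1 in wt. All neil2 libraries thus lay below all wt ones, with line 12 just below. In media the difference of −1.08 ± 0.40 on the log2 scale did not pass (limma adjusted p = 0.0729). It did with the letter of the replicate name as a block (0.0105) and without neil2 12 (−1.55, adjusted p = 0.0127). No neil2 or unlettered wt library carries a letter, so the block left the difference at −1.08 and paired none of these libraries. With BSO BMP4 averaged 85.9 ± 59 in neil2 and 183.1 ± 16.5 in wt (SD, n = 3 each). It fell by 1.28 ± 0.40 on the log2 scale (limma adjusted p = 0.0271). This call was lost without wt 1.1 (adjusted p = 0.0666), wt p1 (0.0929), neil2 rep11.1 (0.146) or neil2 rep11.2 (0.153). It was also lost by edgeR (0.0676) and DESeq2 (0.0613), with line as a random block (0.0641), with 1 mean per line (0.0727) and with only the groups compared (0.0739). The 1 neil2 library of line 12 differed from wt by −0.24 with BSO.

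In the lettered set BMP4 went with the letter of the replicate name. It was higher in the B than in the A library in all 12 comparisons within a line and treatment, by 1.44 to 2.52 times (median 1.79). The A libraries ran between 115 and 202 normalized counts and the B libraries between 229 and 336. Of all tested genes, 3.66% were higher in B in all 12. The neil3 and neil123 differences of BMP4 from wt were within this spread in media. Neither passed by limma (log2 difference 0.42 in neil3 and −0.16 in neil123). Other genes also differed by letter. BMP7 was higher in B in 11 of 12 comparisons and BMP2 in 9, while ID2 and SMAD6 were lower in 11. ID1 was lower in B in 9, SMAD7 in 8 and ID3 in 6. In wt media BMP2 had 20.2 and 28.5 in A and 57.1 and 73.5 in B. ID2 there had 905.6 and 905.5 in A and 670.5 and 656 in B. The wt SDs of both genes include this difference.

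**Figure D1:**
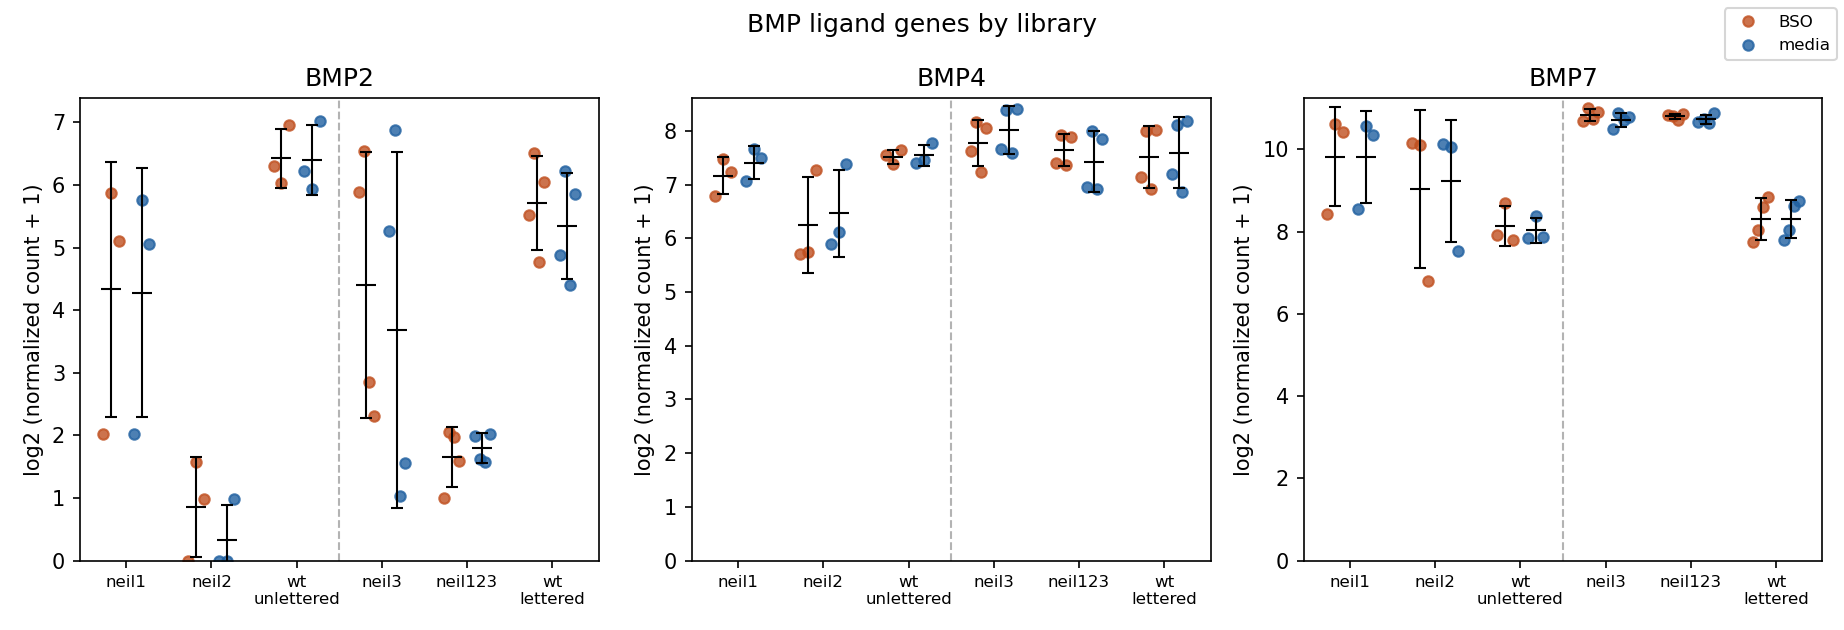
Normalized counts of BMP2, BMP4 and BMP7 in each of the 42 libraries, as log2(normalized count + 1) on the vertical axis. Groups run along the horizontal axis with BSO left of media and the knockouts left of wt of their own set, and bars give the mean ± SD. BMP2 is near the bottom in neil2 and neil123 and split in neil1 and neil3, while BMP7 is high in neil3 and neil123 and split in neil1 and neil2.

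The ID genes encode proteins that lack a DNA-binding region and hold basic helix-loop-helix factors inactive. ID1 (chr20:31605283-31606515, plus strand), ID2 (chr2:8678845-8684453, plus strand) and ID3 (chr1:23557918-23559794, minus strand) were well expressed in every library, and ID4 was close to absent. Because SMAD proteins act on these genes through their upstream regions, the 250 bases before the annotated start are shown for the 3 expressed genes (RefSeq, GRCh38.p14, 5′ to 3′ on the gene's strand). They lie at chr20:31605039-31605288 (plus), chr2:8681806-8682055 (plus) and chr1:23559502-23559751 (minus). Capitals mark GTCT or AGAC, the 4 letters that SMAD MH1 domains contact, searched on both strands.
ID1: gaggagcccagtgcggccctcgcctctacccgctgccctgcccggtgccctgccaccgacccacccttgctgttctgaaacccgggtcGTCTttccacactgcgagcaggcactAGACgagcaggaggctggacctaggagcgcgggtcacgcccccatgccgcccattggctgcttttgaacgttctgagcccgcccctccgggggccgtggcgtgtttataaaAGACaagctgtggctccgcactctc
ID2: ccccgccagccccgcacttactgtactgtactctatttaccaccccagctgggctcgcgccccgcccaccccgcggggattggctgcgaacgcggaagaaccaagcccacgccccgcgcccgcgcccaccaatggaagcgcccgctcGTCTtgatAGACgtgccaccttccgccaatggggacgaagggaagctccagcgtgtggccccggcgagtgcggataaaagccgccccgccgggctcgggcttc
ID3: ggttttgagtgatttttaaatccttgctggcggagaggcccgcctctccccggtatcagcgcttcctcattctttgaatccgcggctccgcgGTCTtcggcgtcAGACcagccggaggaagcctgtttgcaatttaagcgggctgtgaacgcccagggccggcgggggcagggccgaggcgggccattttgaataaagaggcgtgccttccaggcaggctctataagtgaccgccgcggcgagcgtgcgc
The motif starts at 162, 136 and 25 bases before the start in ID1, at 103 and 95 in ID2, and at 158 and 146 in ID3. Of 35116 promoters of this length in the table, 77.5% hold it. The longer GGCGCC, read the same on both strands and known as a BMP-responsive element, is in none of the 3 windows and in 16.4% of all promoters. Their GC content is 66.0% in ID1, 69.2% in ID2 and 62.0% in ID3 (median of all promoters 58.0%). Bases further upstream were not searched, so absence from a window does not mean absence from the gene's whole upstream region. A match is a description of the letters and not a bound site. Of the 9 genes, 7 matched an entry in the promoter table, and the others were BMP2 and BMP7.

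In neil3, where BMP7 was high in every library, the ID genes overlapped wt. ID1 had 2291, 2494, 2591 and 2989 normalized counts in neil3 media libraries, against 2383, 2655, 3039.7 and 3321 in wt. ID2 had 668, 717, 745 and 937, against 656, 670.5, 905.5 and 905.6 in wt. ID3 had 4046, 4206, 4348 and 4661, against 4511, 4580.0, 4595 and 4684 in wt. The 3 ranges overlapped those of wt. The log2 differences in media were −0.13 ± 0.11 for ID1, −0.03 ± 0.20 for ID2 and −0.09 ± 0.10 for ID3, and with BSO −0.04, −0.06 and −0.04 (SE as in media). None of the 7 genes tested in neil3 (all but BMP7 and ID4) was called by limma in media or with BSO, where 0.440% and 0.405% of all tested genes were. None had an unadjusted p under 0.05, and edgeR, DESeq2 and the blocked fit called 0 of them too.

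In neil123, where BMP7 was as high, ID3 and less firmly ID2 and ID1 stood above wt. ID3 had 5623, 5919, 6086 and 6427 normalized counts in neil123 media libraries, all above the highest wt library (4684). It averaged 6014 ± 336 in neil123 and 4593 ± 71.3 in wt (SD, n = 4 each), a ratio of 1.31 and a log2 difference of 0.39 ± 0.10 (limma adjusted p = 0.0111). With BSO ID3 was at 4796, 5187, 5197 and 5314 in neil123, against 3507, 3544, 3964 and 4366 in wt (means 5124 ± 226 and 3845 ± 404, log2 difference 0.42 ± 0.10, limma adjusted p = 0.00528). ID3 thus rose by about the same ratio in both treatments, 1.31 in media and 1.33 with BSO, and the calls held without any 1 of the 8 libraries. They were lost without neil123 line 1 (adjusted p = 0.171 in media and 0.0852 with BSO) and with 1 mean per line (0.355 and 0.219).

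ID1 and ID2 in neil123 lay near the threshold. ID2 had 1136, 1186, 1208 and 1347 normalized counts in neil123 media libraries, above the wt range that ended at 905.6. Its mean was 1219 ± 90.1 in neil123 and 784.5 ± 140 in wt (ratio 1.55, log2 difference 0.65 ± 0.20), with a limma adjusted p of 0.0562, or 0.035 with the replicate block and 0.0484 without wt 1.3A. With BSO ID2 averaged 1154 ± 90.9 in neil123 and 782.6 ± 95.6 in wt (log2 difference 0.56, limma adjusted p = 0.0855), and the groups again did not overlap. ID1 had 3366, 3402, 3413 and 3619 normalized counts in neil123 media libraries, against the wt range of 2383 to 3321, with a log2 difference of 0.29 ± 0.11 (limma adjusted p = 0.146). With BSO ID1 averaged 2884 ± 150 in neil123 and 2272 ± 197 in wt (ratio 1.27, log2 difference 0.35 ± 0.11), and passed narrowly (limma adjusted p = 0.0475). It was lost by edgeR (0.0516), with equal totals (0.0641), with line as a random block (0.124) and without a filter on low values (0.0565). Leaving out any 1 of the 8 libraries (wt 1.1A, 1.1B, 1.3A and 1.3B, neil123 1A, 1B, 2A and 2B) ended that call, with log2 differences of 0.29 to 0.39 and adjusted p of 0.0526 to 0.16. In media 3 of the 8 tested genes were called in neil123 (BMP2, BMP7 and ID3) against 5.34% of all tested genes, and with BSO 4 of 8 (ID1 in addition) against 8.09%. Markers of other cell types moved in the same comparison. In media NES and GAP43, of the 8 tested neural markers, were higher by 1.22 and 3.09 on the log2 scale (limma adjusted p = 0.000934 and 0.000971). The blood progenitor marker KIT was lower by 2.17 (limma adjusted p = 0.000144), and EPCAM and THY1 were called lower. With BSO NES and GAP43 were higher again (1.31 and 3.02). The neural marker PAX6 was lower with BSO by 1.01 (limma adjusted p = 0.0418), a call lost in 6 of 8 omissions of 1 library. In media the summed level of the 10 of 11 neural markers in the table was 41351 to 47955 normalized counts in neil123, against 34425 to 40134 in wt. That of the 9 of 11 fibroblast markers was 21696 to 25012 in neil123, against 15837 to 20945 in wt, and that of the 9 of 13 blood markers 1665 to 1825, against 1471 to 1783. Their part in the ID differences was not tested.

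In neil1 and neil2 no ID gene was called. ID1 had 2105, 2547 and 2642 normalized counts in neil1 media libraries and 1542, 2042 and 2257 in those of neil2, against 1779.9, 1859.8 and 2168 in wt. ID2 had 636, 764 and 845 in neil1 and 336, 681 and 761 in neil2, against 459, 529 and 555 in wt. ID3 had 3449, 3693 and 4158 in neil1 and 2855, 3705 and 3799 in neil2, against 2638, 3087 and 3659 in wt. In media only ID2 in neil1 stood clear of wt, and in neil2 the low value was that of line 12 for all 3 genes. The neil1 differences in media were 0.33 ± 0.13 for ID1, 0.53 ± 0.24 for ID2 and 0.28 ± 0.11 for ID3 on the log2 scale (limma adjusted p = 0.286, 0.351 and 0.298). None of the 8 tested genes was called in neil1 in media, where 0.300% of tested genes were. At an unadjusted p under 0.05 there were 4, and edgeR called 0 and DESeq2 1 (BMP7). With BSO ID1 in neil1 (1847 to 2099, against 1541 to 1732 in wt) and ID2 (656 to 824, against 549 to 620 in wt) lay above wt, and ID3 overlapped it. The neil1 count with BSO was again 0 of 8, against 0.202% of tested genes, with 2 at an unadjusted p under 0.05 and 0 by edgeR and DESeq2. In neil2 the ID differences in media were 0.00 ± 0.13 for ID1, 0.12 for ID2 and 0.14 for ID3 (adjusted p = 0.986, 0.785 and 0.434). With line 12 left out of both treatments, those of ID2 and ID3 were 0.49 (adjusted p = 0.0373) and 0.28 (0.0459) in media. With only the media library of line 12 left out, neither passed (adjusted p = 0.159 and 0.117). With BSO the lines went opposite ways in ID2. Line 11 had 730 and 763 normalized counts and line 12 had 308, against 549 to 620 in wt (log2 differences 0.35 and −0.92).

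ID4 (chr6:19837386-19840684, plus strand) was at 0 in 33 of the 42 libraries. Most of its reads were in neil123 line 1, which had 5.18 and 6.97 normalized counts in media and 6.26 and 8.01 with BSO. The neil123 line 2 had 1.94 in 1 library with BSO, 1 read in 1 library in media, and 0 in the others. Elsewhere it was seen in neil3 1B with BSO (0.981) and in wt 1.3A (2.02) and 1.3B (1.97) in media. With a mean of 0.82 it was not tested. AL022068.1 lies on the opposite strand of ID4, as ID2-AS1 does of ID2, with the same limit on strand as for BMP7.

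**Figure D2:**
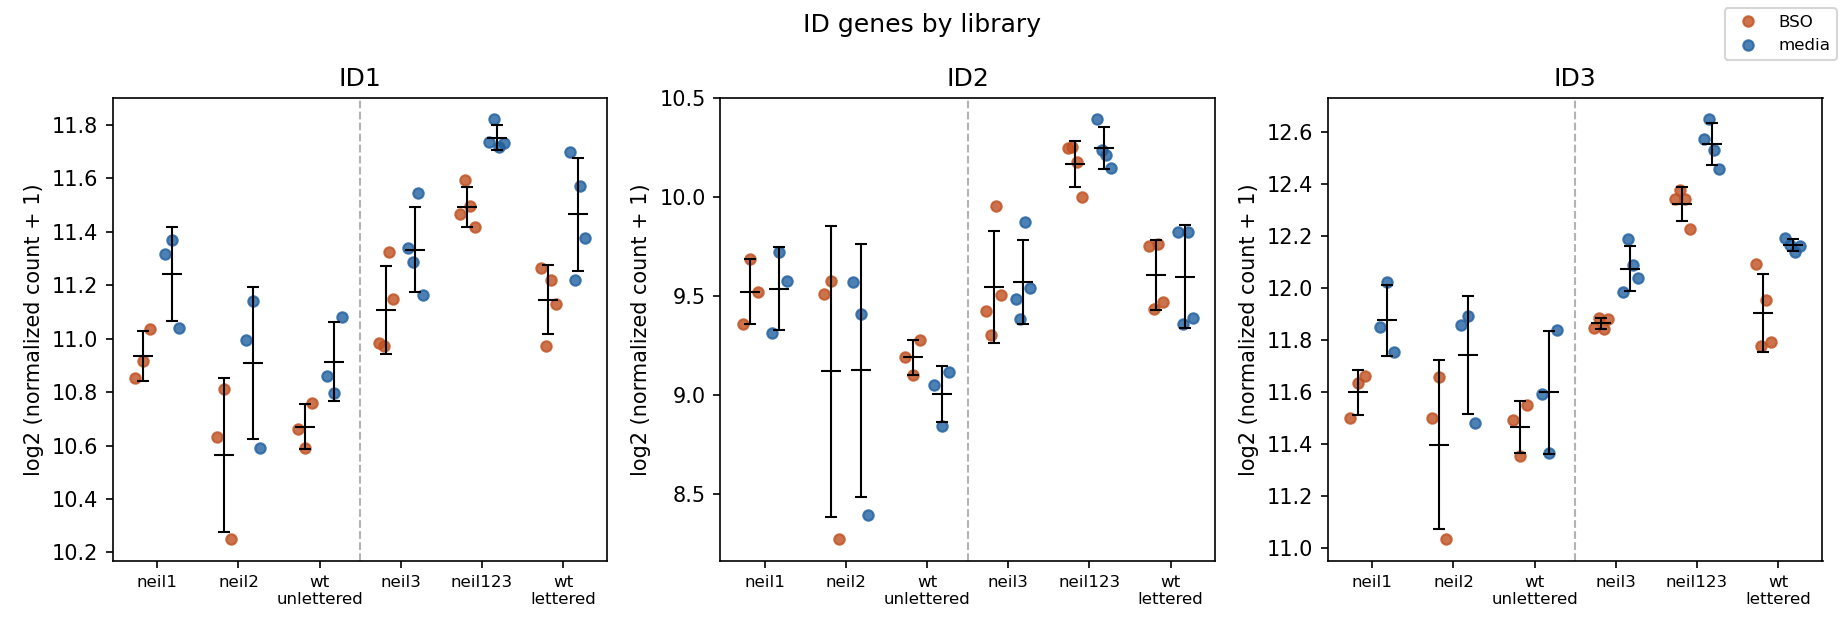
Normalized counts of ID1, ID2 and ID3 in each of the 42 libraries, as log2(normalized count + 1), in the same order of groups and with mean ± SD. The neil123 libraries lie above lettered wt in ID2 and ID3 in both treatments, and the neil3 libraries overlap it.

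Because ID genes passed in neil123 and not in neil3, the genotypes were compared directly, a comparison chosen after the data were seen. BMP7 was level between them, at 1704 ± 133 normalized counts in neil123 and 1696 ± 191 in neil3 in media and at 1791 ± 80.7 and 1832 ± 189 with BSO (SD, n = 4 each). ID3 averaged 6014 ± 336 in neil123 and 4315 ± 261 in neil3 in media (SD, n = 4 each; ratio 1.39, log2 difference 0.48 ± 0.10, limma adjusted p = 0.0013), and 5124 ± 226 and 3725 ± 58.0 with BSO (ratio 1.38, log2 difference 0.46 ± 0.10, limma adjusted p = 0.00184). ID1 averaged 3450 ± 114 in neil123 and 2592 ± 293 in neil3 in media (ratio 1.33, log2 difference 0.42 ± 0.11, limma adjusted p = 0.0167), and 2884 ± 150 and 2216 ± 260 with BSO (log2 difference 0.39 ± 0.11, limma adjusted p = 0.0254). ID2 averaged 1219 ± 90.1 in neil123 and 767 ± 118 in neil3 in media (ratio 1.59, log2 difference 0.68 ± 0.20, limma adjusted p = 0.0398). With BSO it was 1154 ± 90.9 and 759 ± 160 (log2 difference 0.62 ± 0.20, limma adjusted p = 0.0522, or 0.0346 with the replicate block). For all 3 ID genes the lowest neil123 library lay above the highest neil3 library in both treatments. ID2 with BSO nevertheless did not pass by limma. The share of all tested genes separated in this way was not counted. The part of BMP7 in these ID differences was not tested. Of the 7 genes tested, 3 were called in media, against 6.21% of all tested genes, and 2 with BSO, against 8.20%.

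These calls differed in firmness. ID3 held without any 1 of the 8 libraries in both treatments, and in media was lost without neil123 line 1 (adjusted p = 0.0517). The calls of ID1 in both treatments and of ID2 in media were lost without neil3 line 1 or either neil123 line (adjusted p of 0.0924 to 0.363), and all 5 with the label set not taken into account (0.0516 to 0.178). ID1 in media was lost without neil3 2B (adjusted p = 0.0756) or neil123 1B (0.0507), and with BSO without neil3 1A (0.0852), neil3 1B (0.0965), neil123 1B (0.0764) or neil123 2A (0.0505). ID2 in media was lost without neil3 1A (0.101), 1B (0.119) or 2B (0.0822) or neil123 1A (0.112), 1B (0.0738), 2A (0.0761) or 2B (0.0609), and with BSO was gained without neil3 2A (0.0218). With 1 mean per line no ID call remained (lowest adjusted p = 0.163, ID3 with BSO). BMP2 did not pass between these genotypes by limma (log2 difference −1.88 in media, adjusted p = 0.311, and −2.75 with BSO, adjusted p = 0.0678). It was called lower in neil123 by edgeR (adjusted p = 0.0282 in media and 0.0192 with BSO) and DESeq2 (0.0041 and 0.0023), and by limma with BSO without neil3 2A (−3.26, adjusted p = 0.0369) or 2B (−3.44, 0.0319). Markers of other cell types also differed between neil123 and neil3 in media. Of the tested neural markers 2 of 8 were higher, NES and GAP43 (1.26 ± 0.24 and 4.12 ± 0.61 on the log2 scale, limma adjusted p = 0.000603 and 1.54e-05). Of 8 fibroblast markers PDGFRA (3.65) and COL3A1 were higher and THY1 was lower. THY1 was at 0 in every neil123 library, against 242 ± 275 in neil3 (SD, n = 4 each). PDGFRA averaged 2431 ± 400 in neil123 and 357 ± 379 in neil3. In both genes the neil3 SD exceeded the mean, so the neil3 libraries were not uniform. Of 4 blood markers LYL1 was higher (2.54) and KIT lower (−2.33), and of 5 epithelial markers 0 were called, with 1 at an unadjusted p under 0.05 and 1 with the replicate block. The summed level of the 10 of 11 neural markers in the table ran between 41351 and 47955 normalized counts in neil123 media libraries, against 31760 to 39626 in neil3. The fibroblast markers summed to 21696 to 25012 in neil123 and 14653 to 24230 in neil3, and the blood markers to 1665 to 1825 in neil123 and 1362 to 1911 in neil3. The part of these markers in the ID difference was not tested.

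**Figure D3:**
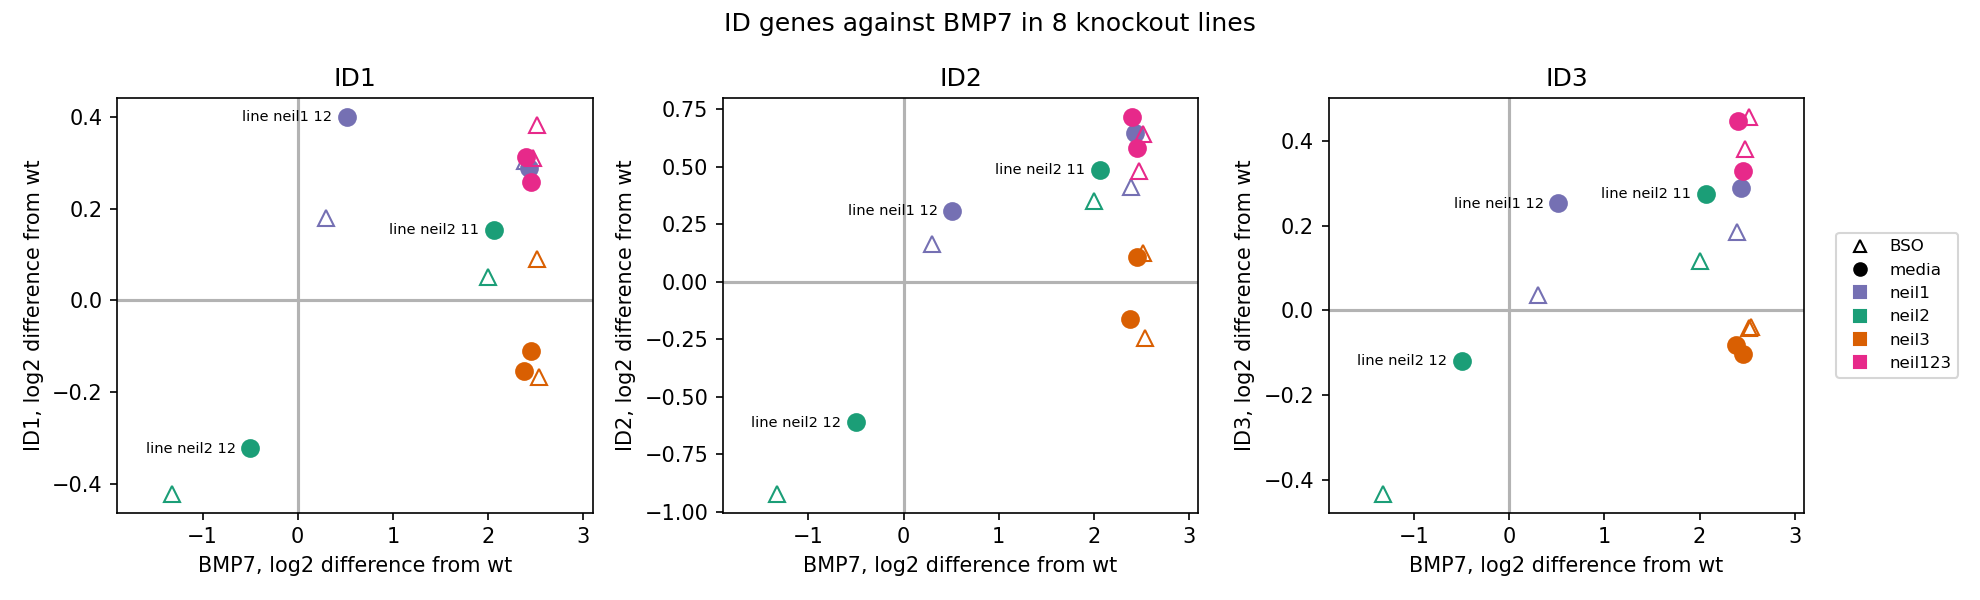
BMP7 against ID1, ID2 and ID3 in the 8 knockout lines, each point the mean log2 difference of a line from wt of its own set in BSO (triangles) or media (circles). The neil3 and neil123 lines share a BMP7 difference of 2.38 to 2.54, while their ID3 differences are −0.10 to −0.04 in neil3 and 0.33 to 0.46 in neil123.

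Over the 8 lines, the BMP7 difference was set against those of ID1, ID2 and ID3. Pearson's r was 0.644, 0.750 and 0.735 with BSO and 0.320, 0.655 and 0.340 in media. Spearman's rho was 0.310, 0.262 and 0.310 with BSO and 0.119, 0.429 and 0.357 in media. Lines of 1 set share their wt libraries, and the neil3 lines chose BMP7, so these values describe the 8 lines only. With BSO neil2 line 12, with 1 library, was the lowest of the 8 in BMP7 and in each of the ID genes. Its differences were −1.33 for BMP7, −0.42 for ID1, −0.92 for ID2 and −0.43 for ID3. The correlations without this line were not computed. Single lines departed from 1 order. The neil1 line 13 had a BMP7 difference of 2.44 on the log2 scale in media with ID1, ID2 and ID3 at 0.29, 0.65 and 0.29. The neil1 line 12, with BMP7 at 0.51, had nearly the same ID3 difference (0.25) and an ID1 difference of 0.40. The neil3 lines 1 and 2, with BMP7 at 2.38 and 2.46, had ID2 at −0.16 and 0.11. The neil2 line 12, the only line with BMP7 below wt (−0.50), had ID1 at −0.32, ID2 at −0.61 and ID3 at −0.12. Lines low in BMP2 took both signs in ID2: −0.61 in neil2 line 12 and 0.49 in neil2 line 11, and 0.72 and 0.58 in the neil123 lines. ID2 lay above every wt library of its set in 5 of 8 lines in each treatment, as 4.88% of tested genes did in media and 4.99% with BSO.

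**Figure D4:**
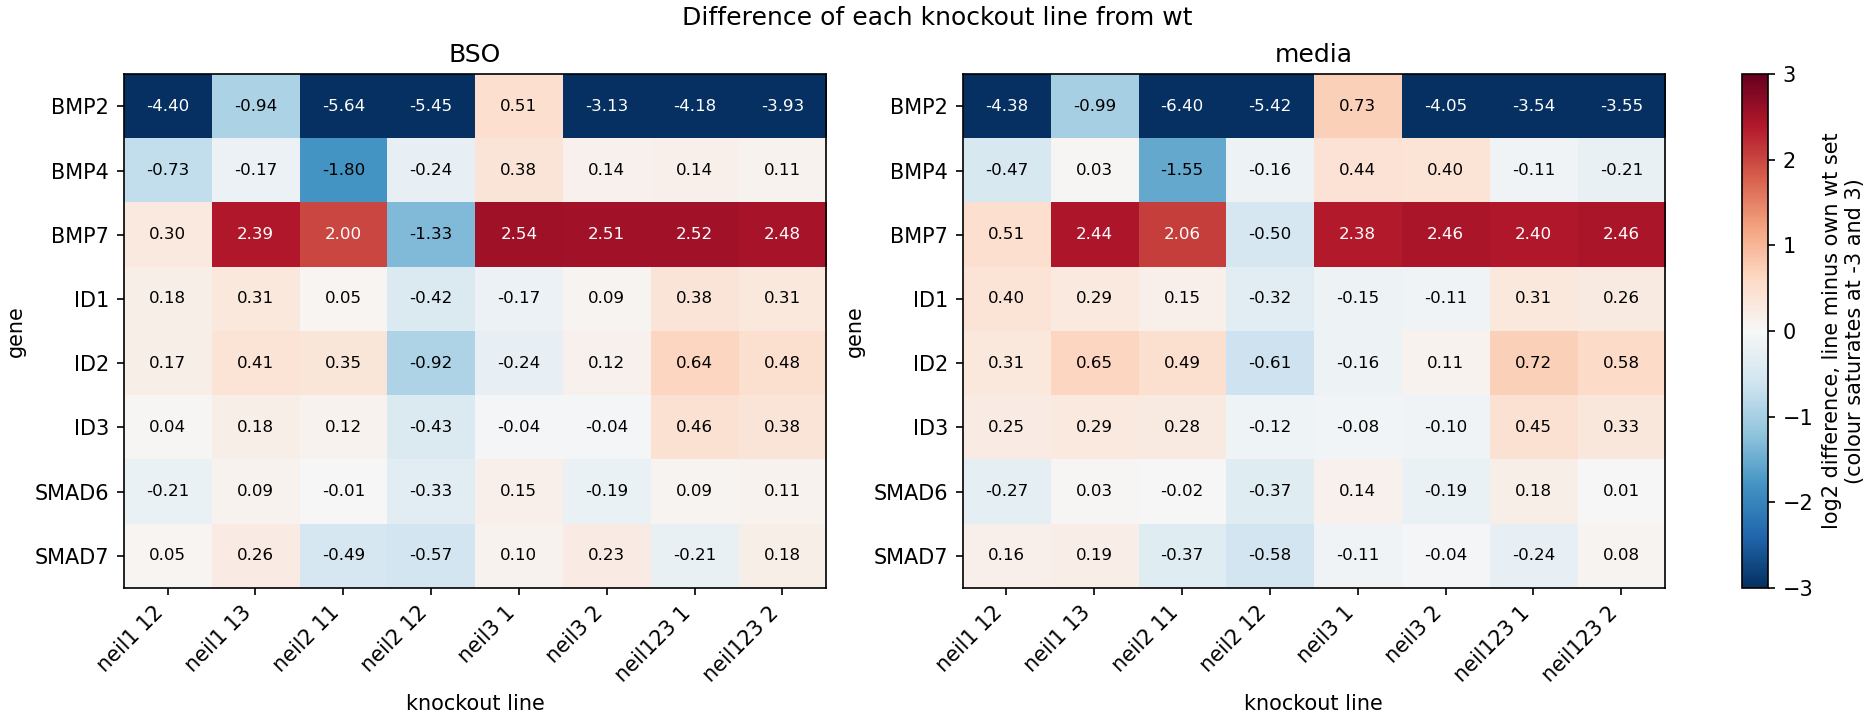
Mean log2 difference of each knockout line from wt of its own set, in BSO and in media, for the 8 tested genes; colours saturate at ±3. BMP2 is lower in 7 of the 8 lines in each treatment, BMP7 is higher in all but neil2 line 12, and the ID differences are small beside them.

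Of the inhibitory SMAD genes, SMAD7 was called in neil2 in both treatments. SMAD7 (chr18:48919853-48952052, minus strand) encodes an inhibitor that binds type I receptors and brings ubiquitin ligases to them. It had 148.0, 160.2 and 181.1 normalized counts in neil2 media libraries, against 188.3, 219.5 and 261.5 in wt. With BSO it had 132.9, 142.3 and 168.8 in neil2, against 193.7, 203.2 and 239.7 in wt. No neil2 library reached the wt range, a position that was common in the neil2 lines taken singly. In media 20.8% of tested genes lay below wt in line 11 and 26.8% in line 12. With BSO these shares were 25.4% and 31.9%. The share in both lines together was not counted. SMAD7 averaged 163.1 ± 16.8 in neil2 and 223.1 ± 36.7 in wt in media (SD, n = 3 each; ratio 0.731, log2 difference −0.44 ± 0.13, limma adjusted p = 0.0273) and 148 ± 18.6 and 212.2 ± 24.3 with BSO (ratio 0.698, log2 difference −0.52 ± 0.13, limma adjusted p = 0.00797). The media call was lost without wt 1.1 (adjusted p = 0.0831), wt p1 (0.137), neil2 rep11.2 (0.106) or neil2 12 (0.0904), and the BSO call without wt p1 (0.0662) or neil2 rep11.1 (0.0537). With only the groups compared both were lost (0.142 in media and 0.0576 with BSO). The media call was also lost with line 12 left out of both treatments (0.0906). Line 11 differed from wt by −0.37 in media and −0.49 with BSO. Line 12, with 1 library per treatment, differed by −0.58 and −0.57. SMAD7 was 1 of 7 genes called in neil2 in media, against 11% of tested genes, and with BMP4 1 of 2 called with BSO, against 15.8%. Its other differences from wt did not pass in any genotype.

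SMAD6 (chr15:66702228-66782848, plus strand), which competes with SMAD4 for activated SMAD1, was not called in any knockout. In media it ran between 676 and 871 normalized counts in neil1 and between 632.5 and 812 in neil2, against 785 to 862 in wt, and between 938 and 1247 in neil3 and 1065 and 1228 in neil123, against 993.5 to 1170.3 in wt. All these ranges overlapped. The lowest neil1 value was that of line 12, in which the 300 tested genes of chromosome 15 from 50 Mb on, where SMAD6 lies, had a median of −0.14 on the log2 scale in media when set against wt. Over all other chromosomes that median was 0.03 in line 12. The part of this region in the SMAD6 value was not tested.

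The other genes of the pathway changed in few places. These lists, like the 9 genes, were drawn up with results of these data known. Of the 12 tested receptors and coreceptors, 0 were called in media in any knockout against wt by limma, where 0.300%, 11%, 0.440% and 5.34% of all tested genes were in neil1, neil2, neil3 and neil123, with 1, 1, 0 and 5 at an unadjusted p under 0.05. In neil1 no gene of any list was called, and in neil3 only LYL1, a basic helix-loop-helix factor of blood cells, which fell.

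In neil2 in media, 4.74% of all tested genes rose and 6.22% fell. Of 11 SMAD genes and their partners, 3 fell and 0 rose (median of the list −0.16 on the log2 scale, of all tested genes 0.02). SMAD1, a transducer of the BMP signal, averaged 763 ± 19.0 normalized counts in neil2 and 934 ± 53.1 in wt (log2 difference −0.29 ± 0.07, limma adjusted p = 0.00829). SMAD9, another such transducer, averaged 539 ± 76.9 in neil2 and 814 ± 67.0 in wt (−0.60 ± 0.18, limma adjusted p = 0.0287). YY1, which binds SMAD proteins, fell by 0.14. Of 21 target genes other than the ID and inhibitory SMAD genes, 0 rose and 3 fell, UNC5B, MSX2 and SMAD9 (median of the list −0.05). MSX2, a homeobox gene induced by BMP in the skull, fell by 0.70 ± 0.17 (limma adjusted p = 0.0072). Of the 8 other ligands of the TGF-beta family, INHBB, which encodes a subunit of activin B, fell to 22.9 ± 10.5 normalized counts in neil2, against 134 ± 10.7 in wt (log2 difference −2.59 ± 0.36, limma adjusted p = 2.03e-05). Of 13 antagonists and processing genes, CHRDL1 fell by 1.14 and FSTL3 and FSTL1 rose by 0.74 and 0.22. With 1 of the 6 libraries left out, the calls of SMAD9 and CHRDL1 were lost in 3 cases each, those of FSTL3 and FSTL1 in 4, YY1 in 2, and SMAD1 and UNC5B in 1. With BSO 0 of the 21 target genes rose and 4 fell, against 7.38% and 8.43% of tested genes. The epithelial markers moved with neil2: their summed level ran between 5294 and 10569 normalized counts in neil2 media libraries, against 2905 to 3565 in wt, over the 7 of 8 in the table, and KRT8 rose while EPCAM fell (lost in 5 and 4 of 6 omissions). The summed level of the 9 of 13 blood markers in the table was 1061 to 1110 in neil2, against 1732 to 1894 in wt. Their part in these results was not tested.

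In neil123 the list of targets moved both ways. In media, 2 of 21 target genes rose, GATA3 and DLX5, and 2 fell, HAND2 and MSX2, against 2.95% and 2.39% of all tested genes (5 and 4 genes with the replicate block, median of the list 0.01, of all tested genes 0.00). GATA3, a transcription factor, averaged 565 ± 32.1 normalized counts in neil123 and 312.5 ± 58.7 in wt (log2 difference 0.87 ± 0.22, limma adjusted p = 0.0113). DLX5, a homeobox gene induced by BMP in bone, averaged 1641 ± 183 in neil123 and 989 ± 104 in wt (0.73 ± 0.19, limma adjusted p = 0.0143). INHBB fell here too (−1.33 ± 0.31 on the log2 scale, limma adjusted p = 0.0056). NEDD4L, a ubiquitin ligase that acts on SMAD proteins, fell by 1.20 ± 0.24 (limma adjusted p = 0.00143). Among the 12 basic helix-loop-helix factors that ID proteins bind or oppose, 3 rose (OLIG1, NEUROG2 and OLIG2) and 1 fell, the E protein gene TCF12. NEUROG2, which drives neuronal differentiation, averaged 478 ± 66.4 in neil123 and 195 ± 39.1 in wt (limma adjusted p = 0.000678), and TCF12 fell by 0.27 ± 0.05 (limma adjusted p = 0.000531). With 1 of the 8 libraries left out, the calls of OLIG2 and MSX2 were lost in 6 and 5 cases, DLX5 in 2 and GATA3 in 1.

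Set against neil3 in media, neil123 was higher in 4 and lower in 2 of the 21 target genes, against 3.62% and 2.59% of tested genes. NOG, which encodes the BMP-binding antagonist noggin and is itself induced by BMP, averaged 956 ± 91.5 normalized counts in neil123 and 542 ± 161 in neil3 (log2 difference 0.86 ± 0.22, limma adjusted p = 0.0142). DLX5 was higher by 1.11 ± 0.19 and TFAP2A, a transcription factor of the neural crest, by 1.24 ± 0.21 (limma adjusted p = 0.000162 and 0.000113). HAND2 was at 0.518 ± 1.04 in neil123 and 66.2 ± 5.52 in neil3, and SNAI1 at 77.4 ± 12.9 in neil123 and 142 ± 25.5 in neil3. With BSO 4 were higher and 3 lower, against 4.63% and 3.57% of tested genes.

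Across all 42 libraries, each taken as its log2 difference from wt of its own set and treatment, the gene most like ID1 was ID2 (Pearson r = 0.886), followed by NOG (0.868), ID3 (0.853), ZYG11A (0.762) and SNX19 (0.762). The genes most like ID3 were ID2 (0.861), ID1 (0.853), DMRTA2 (0.847), DLX5 (0.838) and DLX6 (0.832). For BMP2 they were FAM111A (0.930), SP110 (0.908), BTBD11 (0.907), CAMK1D (0.902) and KCTD12 (0.890), and for BMP7 PLAAT5 (0.922), SHISA4 (0.856), DCHS1 (0.828), C13orf42 (0.823) and RAB36 (0.815). The ID genes thus resembled each other more than either ligand: r of BMP7 was 0.400 with ID1, 0.574 with ID2 and 0.481 with ID3, and that of BMP2 −0.239, −0.317 and −0.282. The libraries share lines and wt means, so these values describe the 42 libraries and carry no test.

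ID1 and ID3 were lower with BSO in every pair of libraries. In the comparison of groups only ID1 in wt was called, and no ligand was. Media and BSO libraries share replicate names and resembled each other by name, so each pair is given as BSO over media. ID1 was lower with BSO in 21 of 21 pairs, at 0.725 to 0.997 times the media value (median 0.806), and ID3 in 21 of 21, at 0.733 to 0.991 times (median 0.850). Of all tested genes, 1.85% were lower in all 21 pairs. In wt, ID1 had 1541 to 2457 normalized counts with BSO (median 2009) and 1779.9 to 3321 in media (median 2383). ID3 in wt had 2614 to 4366 with BSO (median 3507) and 2638 to 4684 in media (median 4511). The ranges of the groups overlapped, while the pairs all pointed down.

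Without the pairing, ID1 in wt (log2 difference −0.28 ± 0.09, limma adjusted p = 0.021) was the 1 call among the 8 genes, against 15.7% of tested genes in wt. It was lost without wt media 1.1A (adjusted p = 0.0554), wt media p1 (0.0606) or wt BSO 1.3 (0.057). ID3 in wt (−0.20) had an adjusted p of 0.0646, and passed without wt BSO 1.1A (0.0386) or wt media 1.3 (0.023). In neil1, neil2, neil3 and neil123 none of the 8 was called, against 1.29%, 0.174%, 6.64% and 1.70% of tested genes, with 2, 2, 1 and 2 at an unadjusted p under 0.05 and 0 by edgeR and DESeq2. With the replicate name as a block, ID1 and ID3 passed in all 5 genotypes. ID1 fell by 0.31 in neil1, 0.35 in neil2, 0.23 in neil3, 0.26 in neil123 and 0.28 in wt on the log2 scale (blocked limma adjusted p = 0.00102, 0.000413, 0.00199, 0.00108 and 2.64e-06). ID3 fell by 0.28, 0.35, 0.21, 0.23 and 0.20 in the same order (0.000982, 0.000107, 0.00144, 0.00121 and 8.07e-05). The blocked fit called 2 of 8 genes in neil1, 2 in neil2, 4 in neil3, 2 in neil123 and 4 in wt, against 11%, 8.46%, 24.0%, 11.7% and 36.6% of tested genes.

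**Figure D5:**
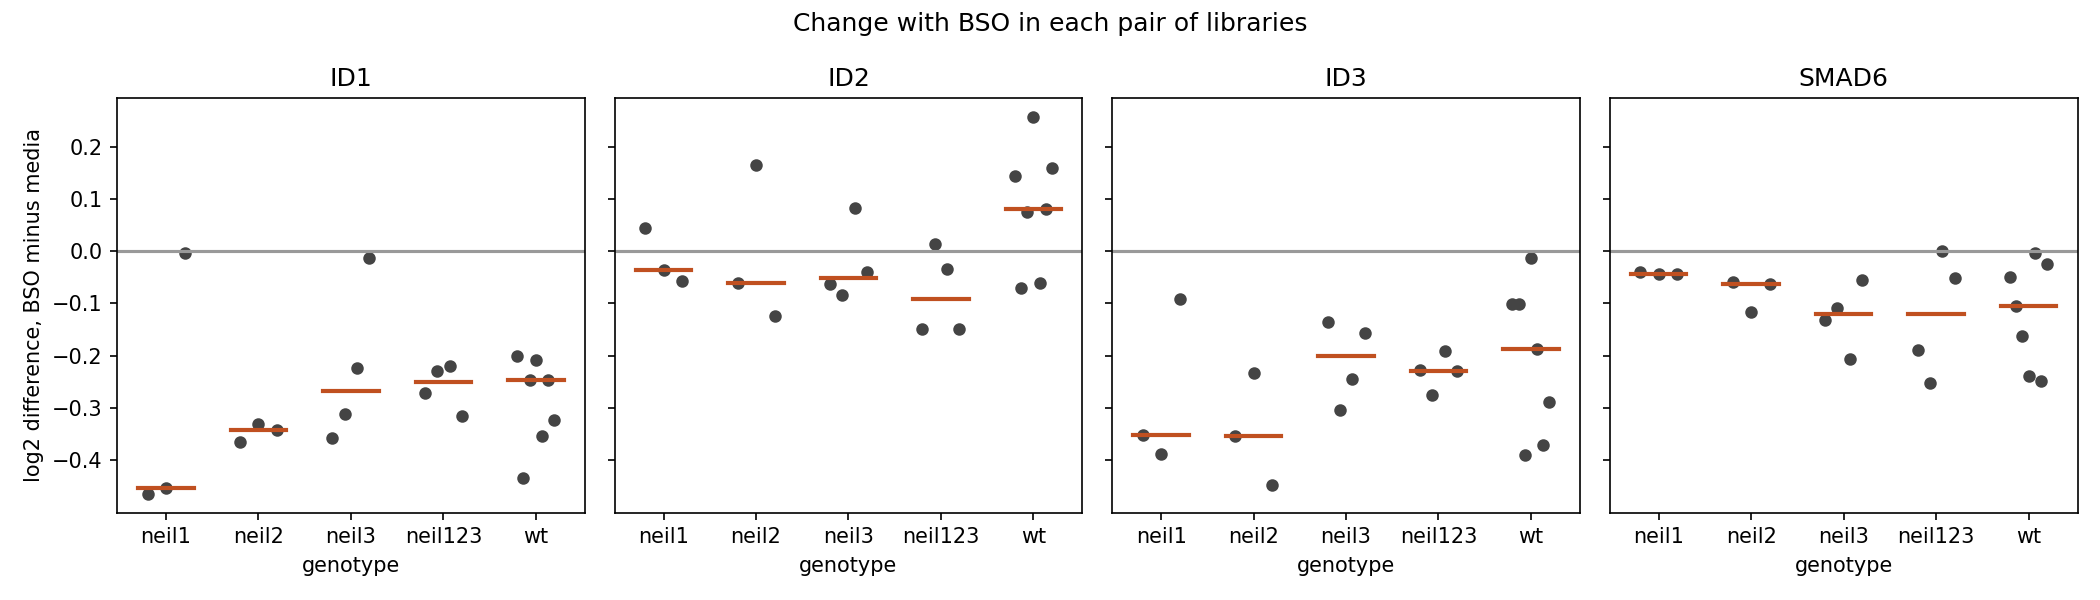
Log2 difference between the BSO and the media library of each replicate name for ID1, ID2, ID3 and SMAD6, by genotype with the knockouts left of wt; the line is the median of a genotype. All 21 pairs lie below 0 for ID1 and ID3, 20 of 21 for SMAD6 and 12 of 21 for ID2.

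SMAD6 was lower with BSO in 20 of 21 pairs but by less (a median of 0.957 times the media value), which 4.63% of genes matched. With the block it passed in neil3 (−0.12, adjusted p = 0.0491) and wt (−0.12, 0.0101). ID2 did not go with ID1 and ID3: it was lower in 12 of 21 pairs, and in wt rose by 0.10 with the block (adjusted p = 0.041). BMP4 was lower in 16 pairs, passing in neil3 alone with the block (−0.24, adjusted p = 0.0492), BMP7 was higher in 15 and BMP2 in 16. SMAD7 was higher in 10 and lower in 11, with neil3 higher in 4 of 4 pairs.

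No difference between knockouts and wt in the size of the fall was detectable at this precision. None of the 8 genes was called for a difference between the change with BSO in neil1, neil2, neil3 or neil123 and that in wt by limma, as 0% of tested genes were, with 0 at an unadjusted p under 0.05. The blocked fit also called 0, with 1, 3, 1 and 1 at an unadjusted p under 0.05, against 2.21%, 10.4%, 0% and 0.0349% of tested genes called, and edgeR and DESeq2 called 0.

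Other ligands of the family did respond to BSO. INHBE, which encodes an activin subunit, averaged 229 ± 80.1 normalized counts with BSO and 35.7 ± 12.2 in media in wt (SD, n = 7 each; log2 difference 2.60 ± 0.29, limma adjusted p = 1.2e-07). GDF15, a distant family member known as a stress-induced cytokine, averaged 169 ± 78.6 with BSO and 32.4 ± 11.9 in media in wt (2.27 ± 0.29, limma adjusted p = 6.88e-07). These were the 2 of 8 other family ligands called in wt. Of the 21 target genes, UNC5B rose (0.57 ± 0.17, limma adjusted p = 0.0171) and DLX3 fell (−0.23 ± 0.08, limma adjusted p = 0.0472) in wt with BSO. These calls were lost in 3 and 11 of 14 omissions of 1 library. In wt with BSO 8.24% of all tested genes rose and 7.41% fell.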

How the data were processed

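The 9 genes and the gene lists were chosen with earlier results of these data known. The authors deposited 1 table of 30182 entries by 42 libraries, 20515 of them with a gene symbol (entries without one held 0.868% to 1.25% of reads). Per the submitters' processing notes they used Trim Galore, HISAT2, SAMtools, featureCounts and DESeq2 with GRCh38; no version, annotation or strand setting is given in the sources used here. The deposited values, a signal of read counts divided by size factors, gave whole reads in 100% of cases (relative tolerance 1e-06), with 1 read worth 0.941 to 1.04. Values of at least 10 on average (14331 named genes) were tested as log2(value + 1) with limma 3.58.1 (R 4.3.3, trended variance, 12 groups with wt split by label set, Benjamini-Hochberg adjusted p under 0.05); folds on this scale understate low genes. Blocks used the letter or replicate name: BSO and media libraries of 1 name pair (r = 0.193 to 0.849, the best match in 21 of 21). Alternatives were edgeR 4.0.16 and DESeq2 1.42.0 on whole reads, other pseudocounts, filters, scalings and blocks, and each library or line left out. With a line left out, its genotype rests on the other line alone, so such a p-value describes that line and not the genotype. The test was checked on simulated data. Besides the 9 and the NEIL genes, up to 4 called genes per list with the largest change (averaging at least 50 in 1 of the groups) and the 5 genes most like BMP2, BMP7, ID1 and ID3 could be named. Floors and intervals cover counting error only. Python 3.11.15, pandas 2.3.3 and matplotlib 3.10.9 were used for tables and plots.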

Additional observations from a re-analysis of the deposited data

Results flagged for a closer look

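ID4 in neil3 with BSO had 0.981 normalized counts in replicate 1B, which is 1 read, and 0 in the 3 others. In the test for a library far from its group, chance gives about 1 in 20 groups, and 52 groups of the 9 genes were examined. The direct comparison of neil123 with neil3, added after the data were seen, gave 5 differences past the threshold by limma (adjusted p under 0.05). On the log2 scale ID1 was higher in neil123 by 0.42 in media and by 0.39 with BSO, ID2 by 0.68 in media, and ID3 by 0.48 in media and by 0.46 with BSO. Each was higher in 4 of 4 neil123 libraries than in every neil3 library of the same treatment. The share of all tested genes separated in this way was not counted.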

How the results depend on the processing

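Calls among the 9 genes, leaving out the tests of the values that chose them, numbered 4 for knockouts against wt in media, 6 with BSO, 1 for BSO against media, 0 for differences in the BSO change and 5 for neil123 against neil3. In media the count was 8 with the label set not taken into account, 1 with 1 mean per line, 7 with DESeq2, 9 without neil2 line 12, and 2 without either neil123 line. With BSO it was 1 with 1 mean per line and 3 without neil123 line 1. BSO against media gave 14 with the replicate block, which ended no call in any comparison. It gave 0 with the label set ignored or 1 mean per line, 5 with only the groups compared, and 2 with line as a random block, columns scaled to equal totals, DESeq2, or without neil2 line 11 or 12. For neil123 against neil3 the count was 0 with the label set ignored or 1 mean per line, 8 with edgeR or DESeq2, 2 without neil3 line 1, 8 without neil3 line 2, and 1 and 2 without neil123 lines 1 and 2. With 1 mean per line or a line left out there are fewer samples; the other causes were not tested. Leaving out 1 library gave 3 to 6 in media, 3 to 8 with BSO (3 without the BSO libraries wt p1 or neil2 rep11.1), and 0 to 2 for BSO against media (0 without wt media 1.1A or p1 or wt BSO 1.3). It gave 3 to 7 for neil123 against neil3 (3 without the media libraries neil3 2B or neil123 1B), and the difference in the BSO change stayed at 0. No called value changed sign in these settings. Of single values with 1 library left out, 1314 kept their side of the threshold, 37 lost it and 9 gained it. Equal totals moved the median of a column by at most −0.128 (log2). For genes near 3 reads, such as BMP2 in neil2, the log2 difference depends on the pseudocount (−6.87 with 0.5 and −4.06 with 5, in media).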
